A study of Mus musculus with 9 samples.

Results

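The genes described here are integrins and tetraspanins: the protein-coding genes whose mouse symbols start with Itga, with Itgb and a digit, or with Tspan, joined by Cd9, Cd37, Cd53, Cd63, Cd81, Cd82, Cd151, Cd44, Icam1 and Icam2. Of 60 such genes in the count table, 51 had at least 10 counts summed over the 9 libraries, out of 43432 genes in all. They comprise 15 integrin alpha, 7 integrin beta and 23 tetraspanin genes, 3 other adhesion genes (Cd44, Icam1, Icam2), and 3 genes of integrin-binding proteins (Itgb1bp1, Itgb1bp2, Itgb3bp) that share the prefix but encode no integrin chain. Tspan8 lay just inside the minimum with 13 counts and Tspan10 just outside it with 7. Itga8, Itgb2l and Tspan12 had no count in any library, and Itga11, Itgad, Itgb6, Tspan1, Tspan10 and Tspan11 had 1 to 7 each.

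Integrins and tetraspanins are surface proteins through which T cells hold on to other cells and to extracellular matrix. An integrin is a dimer of an alpha and a beta chain, and the beta chain decides which alpha chains it can join. Tetraspanins span the membrane several times and gather integrins, receptors and signalling proteins into membrane domains and vesicles. On T cells the β2 integrin LFA-1 binds ICAM proteins on other cells, α4β1 and α4β7 direct homing through VCAM-1 and MAdCAM-1, and αEβ7 (CD103) binds E-cadherin on epithelium.

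RNA was sequenced from regulatory T cells (Tregs) of C57BL/6 mice that had been sorted, activated on anti-CD3/anti-CD28 microbeads and grown with 2000 U/ml IL-2 to day 4. All 9 cultures carried a Cre driven by Foxp3 (Foxp3-Cre-GFP) and the Cre-dependent reporter R26-LSL-RFP. In the 4 Ezh2-deficient cultures both Ezh2 alleles were floxed (Ezh2-fl/fl). Of the 5 WT cultures, replicates 2 to 5 were Ezh2-+/+ and replicate 1 was Ezh2-fl/+, with 1 floxed allele. The series calls the cultures biological replicates; the sources used here give neither the age nor the number of mice behind each, and p values measure the spread between these cultures.

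Libraries held 33718125 to 62201921 counts in the Ezh2-deficient and 32469450 to 59796319 in the WT group. Ezh2, the histone methyltransferase subunit that was deleted, averaged 161 ± 6.49 CPM (counts scaled to library size) where it was floxed on both alleles, against 296 ± 50.5 CPM in WT cultures (log2 fold change -0.88; edgeR adjusted p = 0.000363), as counts over the whole gene. Treg markers summed to 9475 to 10640 CPM against 8675 to 9475 CPM. Of these 6 genes, 1 was higher and 0 lower at an adjusted p under 0.05 in edgeR (16.7%, beside 21.9% of all tested genes). The groups did not overlap for 1 that was higher and 1 that was lower, where 21.2% of all tested genes did not overlap. CD8 T cell markers (Cd8a and Cd8b1) summed to 14.2 to 130.5 CPM against 16.1 to 147 CPM, highest in replicate 4 of each group. Cd8a alone was at 0.936 and 0.361 CPM in Ezh2-deficient replicates 2 and 3 and at 1.98 CPM in WT replicate 3. There the sum was mostly Cd8b1, while Cd8a was at 28.3 to 97.6 CPM in the other cultures. A score over hypoxia-response genes, the mean of log2(CPM + 1), was 6.45 to 6.76 in Ezh2-deficient replicates 1 and 4 and WT replicates 1, 2 and 4, and 5.25 to 5.30 in the others.

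To show the sequence context of genes that moved in each direction, 300 bases of promoter (250 before to 50 after the RefSeq start, build GRCm38.p6) are printed for Itgb1, the most abundant subunit that rose, for Cd9, the member with the smallest adjusted p, and for Tspan31, which fell furthest. Capitals mark CG dinucleotides, which are dense in the CpG islands where Polycomb complexes are known to gather. Each is read 5′ to 3′ on the gene's strand.
Itgb1 (chr8:128685404-128685703, plus strand): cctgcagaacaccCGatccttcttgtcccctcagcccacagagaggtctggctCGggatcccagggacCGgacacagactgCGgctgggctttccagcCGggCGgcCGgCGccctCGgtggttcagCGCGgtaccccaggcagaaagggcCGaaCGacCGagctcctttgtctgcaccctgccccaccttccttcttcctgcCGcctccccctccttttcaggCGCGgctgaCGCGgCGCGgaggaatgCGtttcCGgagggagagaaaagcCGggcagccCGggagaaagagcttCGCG
Cd9 (chr6:125494711-125495010, minus strand): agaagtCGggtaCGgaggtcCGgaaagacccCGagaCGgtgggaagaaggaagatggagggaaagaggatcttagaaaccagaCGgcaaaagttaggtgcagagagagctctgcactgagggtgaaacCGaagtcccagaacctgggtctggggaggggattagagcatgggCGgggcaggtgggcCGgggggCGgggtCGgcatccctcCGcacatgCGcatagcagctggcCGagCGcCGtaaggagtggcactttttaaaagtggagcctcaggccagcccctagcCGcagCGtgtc
Tspan31 (chr10:127070212-127070511, minus strand): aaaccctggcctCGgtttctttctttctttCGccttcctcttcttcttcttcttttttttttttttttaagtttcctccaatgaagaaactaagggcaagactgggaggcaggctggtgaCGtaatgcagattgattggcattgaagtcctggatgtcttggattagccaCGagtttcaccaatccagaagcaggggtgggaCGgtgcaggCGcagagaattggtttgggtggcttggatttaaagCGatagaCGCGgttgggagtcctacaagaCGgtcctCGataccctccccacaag
The Itgb1 window held 27 CG dinucleotides, the Cd9 window 18 and the Tspan31 window 11. Of all RefSeq promoters in the table, 15.5% had at least as many as Itgb1, 29.7% as many as Cd9 and 41.4% as many as Tspan31. A GC box, GGGCGG on either strand, occurred at 1 position for Itgb1, at 2 for Cd9 and at none for Tspan31, and in 35.7% of all promoters. The table had entries for 41 of the 51 genes, against a median of 7 CG dinucleotides over 32851 promoters. The 13 genes called higher had a median of 17 (17 promoters, range 3 to 28). The 22 tested but not called had a median of 12.5 (range 2 to 43). The 4 genes too low to be tested had a median of 16 (range 5 to 29). The 2 called lower had a median of 11 (range 4 to 16) over 5 promoters, most of them of Cd82. These ranges overlapped, and they are given as a description with no test.

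Ezh2-deficient Tregs carried more transcript of the β1 integrin chain, of the alpha chains Itga4, Itga5 and Itgam, of Itgb5 and of Itgb3bp. The tetraspanin genes Cd9, Tspan9, Tspan2, Tspan13 and Cd63 and the adhesion gene Cd44 were also higher. The LFA-1 alpha chain gene Itgal and the tetraspanin genes Cd82 and Tspan31 were lower. The calls of Itga4, Itgb5, Tspan2, Itgal and Cd82 were lost in some alternatives given below. Itgb3 and Cd81 were called higher too, but lost their calls in 12 of 19 alternatives. Of the 51 genes, 46 passed the filter on low counts and were tested. With Benjamini-Hochberg adjustment over 13685 genes and a threshold of 0.05 (quasi-likelihood test of edgeR), 14 of the 46 rose and 3 fell, which is 37% called, where 21.9% of all tested genes passed. By direction, 13.1% of all tested genes were called higher and 8.8% lower. The genes were chosen with earlier results of these data known, so their shares are a description and no test. The 2 groups of libraries did not overlap for 10 genes that were higher and 3 that were lower, where 21.2% of all tested genes did not overlap (12.5% higher, 8.69% lower). The median log2 fold change was 0.13 over the 46 and 0.00 over all tested genes, and the median size of the change 0.34 against 0.24. Most changes were modest: 3 genes rose by 2-fold or more (Cd63, Tspan9 and Itgb1) and none of the 46 fell by as much, where 4.79% of all tested genes passed with a rise and 1.33% with a fall of that size. Fewer cells with a transcript and less transcript per cell cannot be told apart in these bulk libraries.

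**Figure D1:**
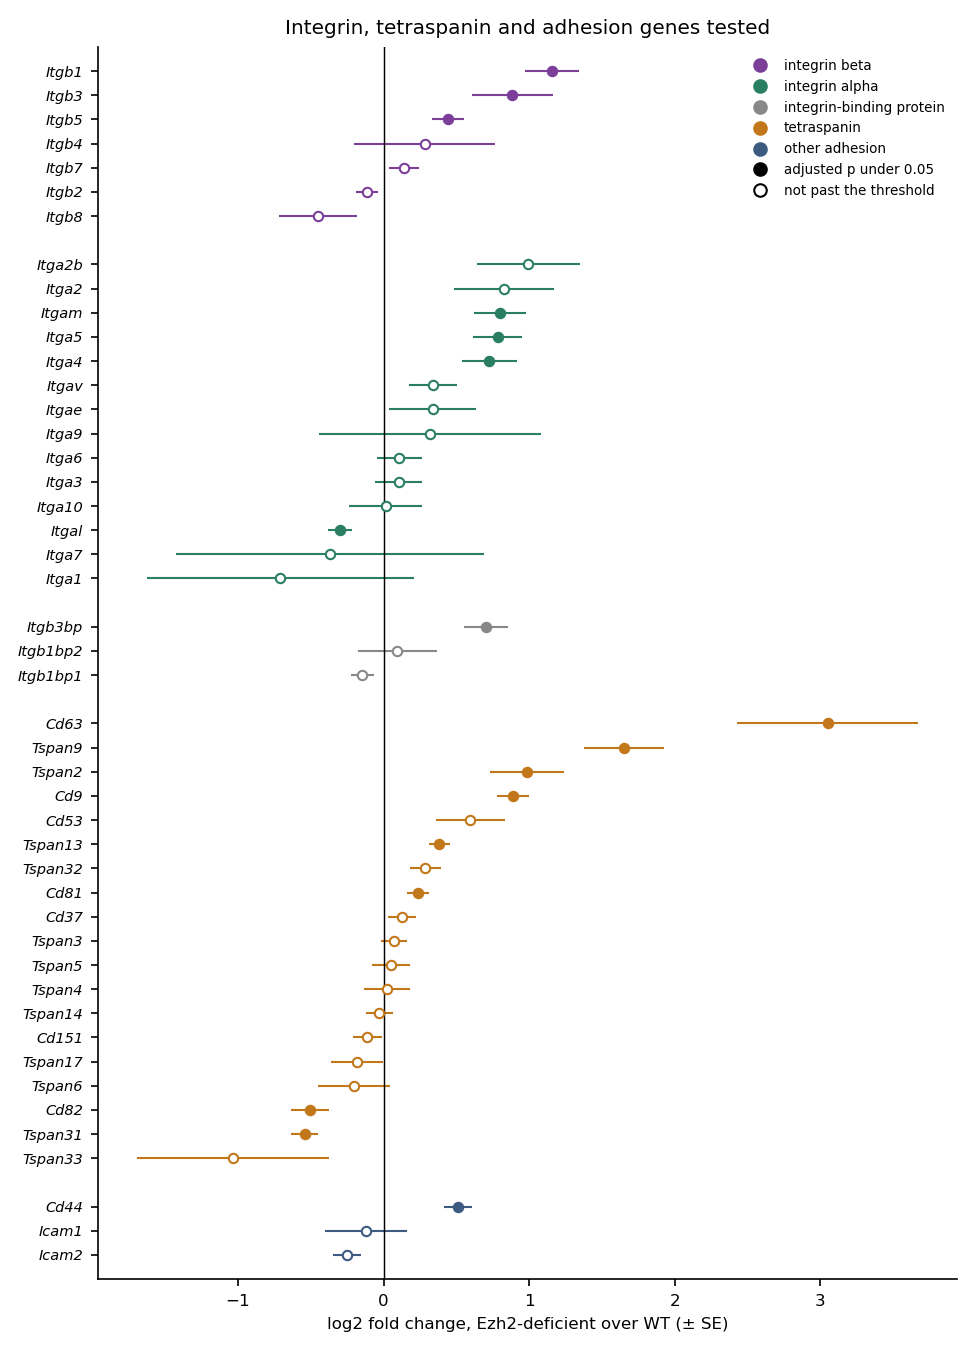
Log2 fold changes (Ezh2-deficient over WT) with standard errors for the 46 tested genes, one row per gene, grouped by role; filled points passed an adjusted p of 0.05. The 14 filled points right of 0 come from every role, and the 3 left of it are tetraspanin and integrin alpha genes. Cd63 at 3.05 and Tspan9 at 1.65 lie furthest right.

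Among the beta chains, Itgb1, the common chain of the matrix- and VCAM-1-binding integrins, changed most. Itgb1 (ENSMUSG00000025809; GRCm38 chromosome 8, 128685654 to 128733200) was at 742, 519.8, 623 and 793 CPM in Ezh2-deficient replicates 1 to 4, against 376, 329, 197, 253 and 348 CPM in WT replicates 1 to 5. Every Ezh2-deficient culture lay above every WT culture. Itgb1 thus averaged 669.5 ± 123 CPM in the 4 Ezh2-deficient cultures, against 301 ± 73.9 CPM in the 5 WT cultures (mean ± SD, as throughout), a 2.23-fold rise (log2 fold change 1.16, SE 0.18, edgeR adjusted p = 0.00158).

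Itgb5, a beta chain that pairs with αv to bind vitronectin, rose to 51.0 ± 5.46 CPM, against 37.5 ± 4.62 CPM in WT (log2 fold change 0.44, edgeR adjusted p = 0.0138). Its lowest Ezh2-deficient culture had 45.8 CPM and its highest WT culture 42.7 CPM. Without Ezh2-deficient replicate 1 it no longer passed (0.36, edgeR adjusted p = 0.0667).

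Itgb3, the vitronectin receptor and platelet integrin chain, was at 179.7, 212, 298 and 178 CPM in Ezh2-deficient cultures and at 96.0, 97.1, 88.8, 98.2 and 207 CPM in WT cultures. The groups overlapped through WT replicate 5, which stood more than 2-fold above the other 4. The call was narrow (log2 fold change 0.88, SE 0.28, edgeR adjusted p = 0.0484) and was lost when any library other than WT replicate 5 was left out, with log2 fold changes of 0.67 to 0.95 and adjusted p of 0.0690 to 0.1304. The lowest of these came without Ezh2-deficient replicate 3. Without WT replicate 5 the change was 1.18 (edgeR adjusted p = 0.000457).

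The leucocyte beta chains Itgb7 and Itgb2 did not pass the test. Itgb7, the gut-homing chain that pairs with α4 and αE, averaged 1026 ± 125 CPM in Ezh2-deficient cultures, against 930.1 ± 102 CPM in WT cultures (log2 fold change 0.14, edgeR adjusted p = 0.350). Itgb2, the chain of LFA-1 and Mac-1, averaged 544 ± 24.4 CPM against 589 ± 40.1 CPM (-0.11, edgeR adjusted p = 0.296). Itgb8, whose dimer with αv is known to activate latent TGF-β, averaged 11.7 ± 4.61 CPM against 16.1 ± 4.47 CPM (-0.45, edgeR adjusted p = 0.245) and passed without Ezh2-deficient replicate 4 (-0.76, edgeR adjusted p = 0.0493). Itgb4, the hemidesmosome chain, stayed below 1 CPM in all 9 cultures.

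Scaled by exon length, so that levels of different genes can be set side by side, the mean levels of the beta chains stood in the order Itgb7, Itgb2, Itgb1 in both genotypes, with Itgb1 closer to Itgb2 in Ezh2-deficient cultures. Levels in CPM per kb were 370.3, 178 and 164 for Itgb7, Itgb2 and Itgb1 in Ezh2-deficient cultures, against 336, 193 and 73.7 in WT cultures. Itgb1 made up 24.0, 15.98, 19.9 and 26.4% of the summed beta chain level in the Ezh2-deficient cultures, against 14.2, 13.0, 8.32, 9.99 and 12.2% in the WT cultures. Its share exceeded that of Itgb2 in Ezh2-deficient replicates 1 and 4 and in no WT culture. Both had a high hypoxia-response score, with Itgb1 at 742 to 793 CPM against 519.8 to 623 CPM in the low-score Ezh2-deficient cultures. In WT cultures the ranges overlapped, at 253 to 376 CPM with a high and 197 to 348 CPM with a low score. With the score as a covariate the genotype difference of Itgb1 was 1.16 (edgeR adjusted p = 0.00066).

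**Figure D2:**
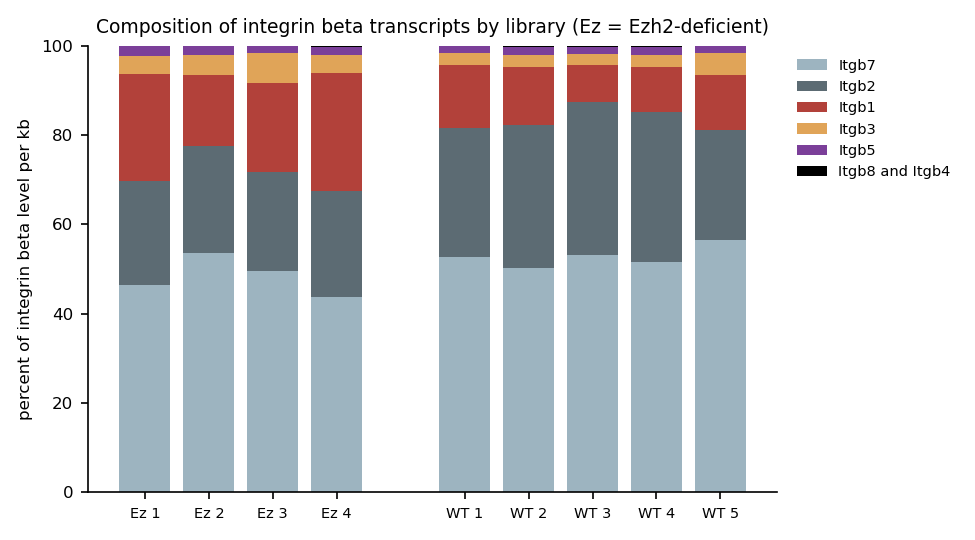
Percent of the summed integrin beta chain level (CPM per kb of exon) held by each beta chain gene, stacked for each of the 4 Ezh2-deficient and 5 WT cultures. The Itgb1 segment spans 15.98 to 26.4% in Ezh2-deficient and 8.32 to 14.2% in WT cultures, while Itgb7 takes 43.7 to 53.6% and 50.3 to 56.6%.

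Of the 12 alpha chains known to join β1, 10 were tested, of which 2 rose (Itga4 and Itga5) and 0 fell, a share near the 21.9% called over all tested genes. Itga5, the fibronectin receptor chain (ENSMUSG00000000555; chromosome 15, 103344286 to 103366763), was at 27.1, 28.7, 25.9 and 24.0 CPM in Ezh2-deficient cultures and at 17.2, 18.1, 16.7, 9.15 and 15.6 CPM in WT cultures. All Ezh2-deficient cultures were above all WT cultures, and WT replicate 4 was lowest (log2 fold change 0.78, SE 0.17, edgeR adjusted p = 0.00671).

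Itga4, the chain shared by α4β1 and α4β7 (ENSMUSG00000027009; chromosome 2, 79255426 to 79333123), was at 386, 341, 346 and 550.1 CPM in Ezh2-deficient cultures and at 213, 214, 247, 199 and 353 CPM in WT replicates 1 to 5. WT replicate 5 reached into the Ezh2-deficient range. The fold change was 1.66 (log2 fold change 0.73, edgeR adjusted p = 0.0192). It missed the threshold without Ezh2-deficient replicate 4 (0.52, adjusted p = 0.0501), without WT replicate 3 (0.70, adjusted p = 0.0516), and without the 2 replicates 4 that had the highest Cd8a (0.48, adjusted p = 0.0892), all by edgeR. With no filter on low counts it missed it too (0.71, edgeR adjusted p = 0.0649). Its exons overlap the opposite-strand gene Cerkl over 1124 bases, and Cerkl, at 9.16 against 5.29 CPM, also rose (0.79, edgeR adjusted p = 0.00457).

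The laminin receptor chain Itga6 was the most abundant β1 partner at 627 ± 23.4 CPM in Ezh2-deficient cultures, against 582 ± 142 CPM in WT cultures. It ranged from 415 to 756 CPM among WT cultures, a span that contained all 4 Ezh2-deficient values (edgeR adjusted p = 0.648). Itgav, the αv chain that joins several beta chains, averaged 137 ± 25.5 CPM against 108 ± 22.5 CPM (log2 fold change 0.34, edgeR adjusted p = 0.159). The collagen receptor chain Itga2 averaged 7.25 CPM against 4.09 CPM (edgeR adjusted p = 0.103), and the platelet chain Itga2b 1.73 CPM against 0.859 CPM (edgeR adjusted p = 0.0632). Itga2b passed without Ezh2-deficient replicate 2 (1.15, edgeR adjusted p = 0.0442) or 4 (1.16, edgeR adjusted p = 0.0440), and with all 9 libraries in DESeq2 (0.99, DESeq2 adjusted p = 0.0381). The platelet genes Pf4, Ppbp and Gp9 had no count in any library.

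The β2 partners moved in opposite directions. Itgal, the αL chain of LFA-1 (ENSMUSG00000030830; chromosome 7, 127296260 to 127335138), was at 473, 425, 423 and 469 CPM in Ezh2-deficient cultures and at 515, 587, 567, 595 and 489 CPM in WT cultures. All Ezh2-deficient cultures lay below all WT cultures, by a small margin (1.23-fold lower, log2 fold change -0.30, SE 0.08, edgeR adjusted p = 0.0233). The call was lost without Ezh2-deficient replicate 3 (-0.29, edgeR adjusted p = 0.0624) and without the 2 libraries highest in Cd8a (-0.29, edgeR adjusted p = 0.0565).

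Itgam, the αM chain of Mac-1 and a myeloid marker, lies 727.5 kb from Itgal and rose to 21.2 ± 3.48 CPM, against 12.2 ± 2.95 CPM in WT (log2 fold change 0.80, SE 0.18, edgeR adjusted p = 0.00817). Its lowest Ezh2-deficient culture had 16.6 CPM and its highest WT culture 16.3 CPM. Of 6 myeloid markers, which summed to 5.90 to 6.26 CPM in Ezh2-deficient and 3.01 to 4.78 CPM in WT cultures, Adgre1 rose (3.23 against 0.957 CPM, edgeR adjusted p = 0.00515) and Cd68 did not pass (2.73 against 2.67 CPM). Lyz2 averaged 0.0685 CPM against 0.0214 CPM, Csf1r 0.0515 against 0.0377 CPM, and Fcgr1 had no count in the Ezh2-deficient libraries. Cd14 ran the other way, with 1 count over the Ezh2-deficient and 42 over the WT libraries and no overlap in CPM, and was too low to be tested. Itgam overlaps another annotated gene on its strand, Gm49368, over 3450 exonic bases, which was not in the table. Itgax, the dendritic cell chain 11.1 kb away, had 15 counts in Ezh2-deficient and 9 in WT libraries and was not tested.

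Itgae, the αE chain of CD103, is known from Tregs and from CD8 T cells at epithelia. It was at 19.8, 21.6, 25.0 and 33.7 CPM in Ezh2-deficient replicates 1 to 4, against 16.1, 18.3, 11.3, 36.0 and 17.4 CPM in WT replicates 1 to 5. The groups overlapped because WT replicate 4 was the highest of all 9 (log2 fold change 0.34, SE 0.30, edgeR adjusted p = 0.444). Without WT replicate 4 the difference passed (0.66, edgeR adjusted p = 0.0358), and without the replicate 4 libraries of both groups it did not (0.48, edgeR adjusted p = 0.0814). Cd8a was highest in those same libraries, at 79.9 CPM in the Ezh2-deficient and at 97.6 CPM in the WT library. They also had the highest hypoxia-response score of their group, 6.76 and 6.68, so leaving them out removes both extremes. The part of other cells or of hypoxia in the Itgae level was not tested.

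Itga7, a laminin receptor chain best known from muscle, varied more between cultures than between genotypes. It was at 70.4, 7.47, 5.51 and 108 CPM in Ezh2-deficient replicates 1 to 4 and at 57.9, 88.5, 11.3, 128 and 23.9 CPM in WT replicates 1 to 5 (log2 fold change -0.37, SE 1.06, edgeR adjusted p = 0.838). The 5 cultures with a high hypoxia-response score held 57.9 to 128 CPM and the 4 with a low score 5.51 to 23.9 CPM. Cd8a differed between these cultures too, at 28.3 to 97.6 CPM with a high and 0.361 to 41.1 CPM with a low score. Whether Itga7 goes with the score or with Cd8a was not tested. With that score as a covariate the genotype difference was -0.79 (edgeR adjusted p = 0.0747). Cd63, whose gene lies 21 kb away, did not follow this pattern: its values below are ordered by genotype.

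**Figure D3:**
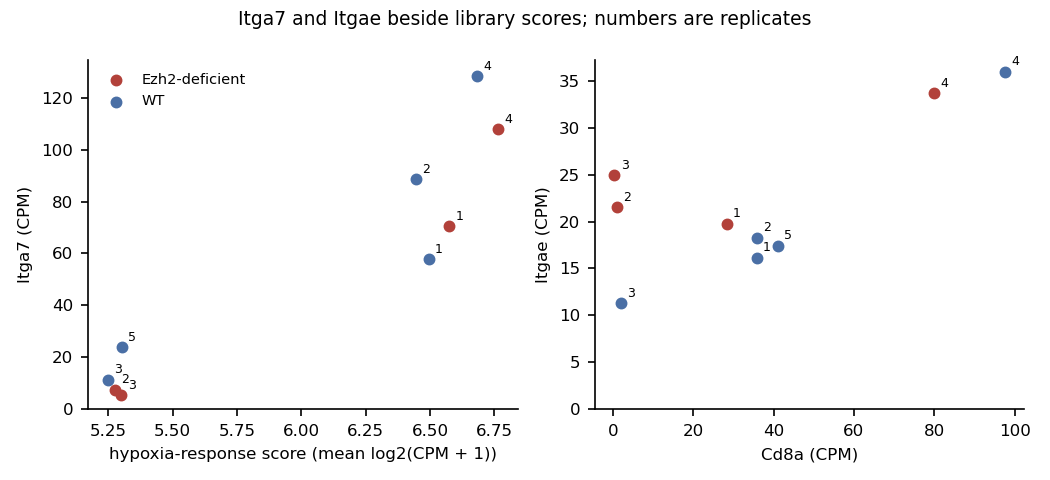
Itga7 (CPM, left) against the hypoxia-response score and Itgae (CPM, right) against Cd8a (CPM), one point per culture, red for Ezh2-deficient and blue for WT, numbered by replicate. Itga7 is at 57.9 CPM or more in the 5 high-score cultures of both genotypes. Itgae is highest in the replicate 4 cultures, at 33.7 CPM in the Ezh2-deficient and 36.0 CPM in the WT culture. The replicate 4 cultures had both the highest score and the highest Cd8a of their group.

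**Figure D4:**
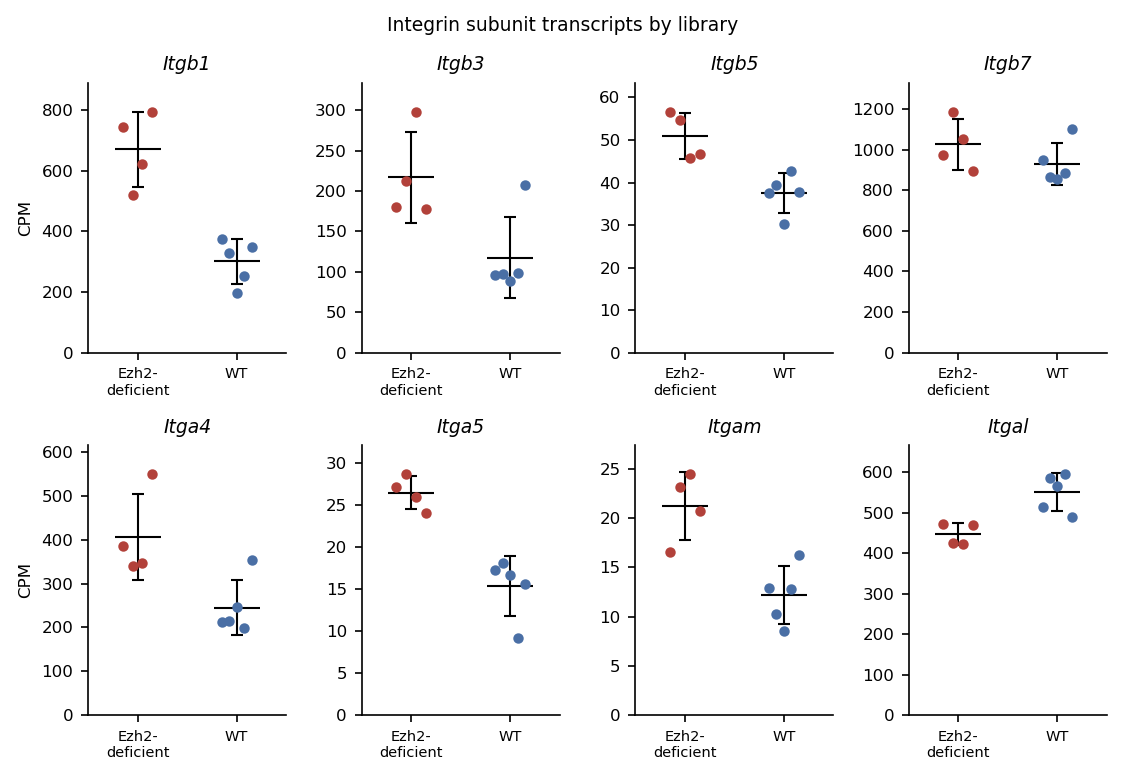
CPM of 8 integrin subunit genes, one point per culture, with mean and SD (bars) for the 4 Ezh2-deficient (left) and 5 WT (right) cultures; each axis starts at 0. Itgb1, Itgb5, Itga5 and Itgam separate upward and Itgal downward, whereas WT replicate 5 overlaps the Ezh2-deficient cultures for Itgb3 and Itga4, and the 2 groups overlap in part for Itgb7.

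Of the integrin-binding proteins, Itgb3bp, a small protein also known as the kinetochore component CENP-R, rose to 12.7 ± 2.09 CPM, against 7.81 ± 0.960 CPM in WT (log2 fold change 0.71, edgeR adjusted p = 0.00645), with no overlap between groups. It shares 398 exonic bases with Pgm1 on the opposite strand, which averaged 121 CPM against 154 CPM and did not pass (edgeR adjusted p = 0.681). Itgb1bp1, the ICAP-1 gene whose product binds the β1 tail, averaged 36.3 ± 1.09 CPM against 40.1 ± 2.98 CPM (-0.15, edgeR adjusted p = 0.210).

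Among 19 tetraspanin genes tested, 6 rose and 2 fell (42.1% called, beside 21.9% of all tested genes). Cd9, a tetraspanin of exosomes and of integrin complexes (ENSMUSG00000030342; chromosome 6, 125460266 to 125494791), was at 60.3, 66.9, 76.4 and 67.1 CPM in Ezh2-deficient cultures and at 31.3, 33.6, 34.4, 44.5 and 38.7 CPM in WT cultures. The lowest Ezh2-deficient culture was well above the highest WT culture (1.85-fold higher, log2 fold change 0.89, SE 0.11, edgeR adjusted p = 0.000271). Tspan9, a tetraspanin best studied in platelets, lies on the same chromosome (127961396 to 128143594). It was at 6.99, 6.99, 5.36 and 8.45 CPM in Ezh2-deficient cultures and at 1.61, 2.25, 1.92, 3.84 and 1.496 CPM in WT cultures (log2 fold change 1.65, SE 0.27, edgeR adjusted p = 0.00157). Cd9 and Tspan9 are 77.9 and 80.4 Mb from Ezh2 on chromosome 6, whereas Tspan33, 17.8 Mb from it, stayed below 1 CPM and did not pass (edgeR adjusted p = 0.274).

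Cd63, a tetraspanin of late endosomes and secretory granules, had the largest fold change of the 46 genes but a very low level. It had 28, 45, 47 and 104 counts in Ezh2-deficient replicates 1 to 4 and 1, 1, 9, 13 and 6 counts in WT replicates 1 to 5. As levels, these were 1.23 ± 0.401 CPM and 0.152 ± 0.144 CPM (8.29-fold, log2 fold change 3.05, SE 0.62, edgeR adjusted p = 0.00507). It did not enter the test under a filter of 1 CPM in 4 libraries.

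Tspan2, known from oligodendrocytes and lymphoid cells, was at 11.8, 6.23, 7.04 and 10.96 CPM in Ezh2-deficient cultures and at 3.38, 5.49, 3.36, 6.51 and 4.00 CPM in WT cultures. WT replicate 4 was just above Ezh2-deficient replicate 2 (log2 fold change 0.99, edgeR adjusted p = 0.0167). The Tspan2 call was lost without Ezh2-deficient replicate 1 (0.81, edgeR adjusted p = 0.0658) or 4 (0.86, edgeR adjusted p = 0.0521). Both had a high hypoxia-response score and the higher Tspan2 levels of their group, while high- and low-score WT cultures overlapped. With the score as a covariate the Tspan2 change was 0.99 (edgeR adjusted p = 0.00246). Tspan13 rose by less but with little spread, to 141 ± 7.40 CPM, against 108 ± 6.52 CPM in WT (0.38, edgeR adjusted p = 0.00304, no overlap). Cd81, a partner of the B cell co-receptor that T cells also carry, had the smallest rise, at 129 ± 9.12 CPM against 109.8 ± 6.63 CPM (0.24, edgeR adjusted p = 0.0405). Its call was lost when any library but replicate 4 of either group was left out, with changes of 0.18 to 0.24 and adjusted p of 0.0815 to 0.149, and the groups overlapped at WT replicate 4 (120.1 CPM).

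Cd82, known as the metastasis suppressor KAI1, was at 220.4, 238, 222 and 188 CPM in Ezh2-deficient cultures and at 248, 332, 363, 349.8 and 247 CPM in WT cultures. The groups did not overlap, but WT replicates 1 and 5 came close to the Ezh2-deficient range (1.42-fold lower, log2 fold change -0.50, SE 0.13, edgeR adjusted p = 0.0165). Without the 2 libraries highest in Cd8a the change was -0.39 (edgeR adjusted p = 0.0887). Tspan31 was at 49.6, 46.6, 48.9 and 55.1 CPM in Ezh2-deficient cultures and at 64.7, 78.1, 67.3, 83.5 and 70.9 CPM in WT cultures (1.46-fold lower, log2 fold change -0.54, SE 0.09, edgeR adjusted p = 0.00191). Its gene (chromosome 10, 127067280 to 127070264) shares 641 exonic bases with the opposite-strand cell cycle kinase gene Cdk4, which averaged 226 CPM against 270.0 CPM and also fell (-0.25, edgeR adjusted p = 0.0307). The sources used here do not say how strand was counted, and the share of each gene in these reads was not tested.

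Other abundant tetraspanin genes did not pass with all 9 libraries in edgeR. Cd53, a leucocyte tetraspanin, held 326 CPM per kb in Ezh2-deficient and 216 in WT cultures, the second highest of the 51 genes after Itgb7. Its CPM were 647, 430.1, 586 and 611 in Ezh2-deficient and 330.0, 364, 209.6, 421 and 555 in WT cultures, overlapping through WT replicate 5 (log2 fold change 0.60, edgeR adjusted p = 0.0948), and it passed without that library (0.77, edgeR adjusted p = 0.0230). With all 9 libraries it passed in DESeq2 (0.58, DESeq2 adjusted p = 0.0305). Cd37, another leucocyte tetraspanin, averaged 256 ± 27.1 CPM against 234 ± 23.7 CPM (edgeR adjusted p = 0.350) and Tspan14, a partner of the protease ADAM10, 156 ± 5.23 CPM against 159 ± 19.5 CPM (edgeR adjusted p = 0.852). Tspan32, next to Cd81 on chromosome 7, averaged 254 ± 41.9 CPM against 208 ± 16.01 CPM (0.29, edgeR adjusted p = 0.0695) and passed without Ezh2-deficient replicate 1 (0.34, edgeR adjusted p = 0.0448) and with the hypoxia-response score as a covariate (0.26, edgeR adjusted p = 0.0129). Tspan7, Tspan8, Tspan15 and Tspan18, with 13 to 83 counts over all libraries, were too low to be tested.

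**Figure D5:**
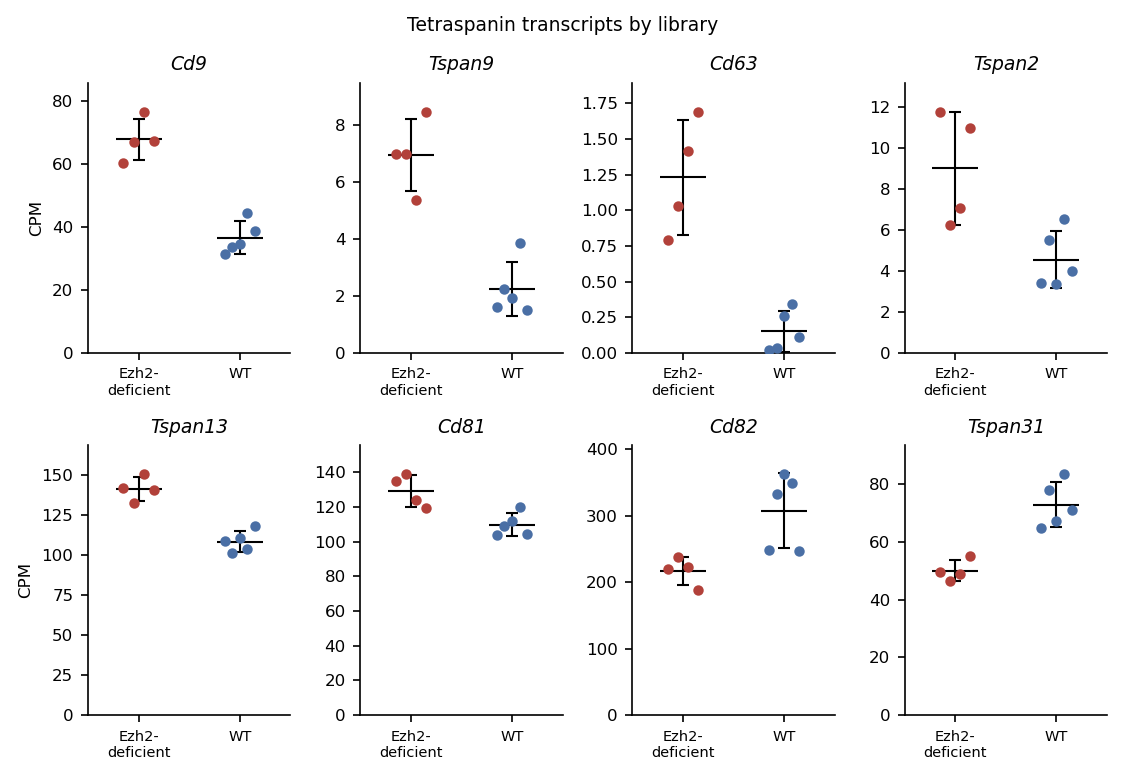
CPM of 8 tetraspanin genes, one point per culture, with mean and SD (bars) for the 4 Ezh2-deficient (left) and 5 WT (right) cultures; each axis starts at 0. Cd9, Tspan9, Cd63 and Tspan13 separate upward and Cd82 and Tspan31 downward, while Tspan2 and Cd81 overlap by 1 WT culture.

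Cd44, the hyaluronan receptor that marks antigen-experienced T cells, was at 186, 164, 187 and 227 CPM in Ezh2-deficient cultures and at 139, 138, 119, 139 and 136 CPM in WT cultures, with no overlap (log2 fold change 0.51, SE 0.09, edgeR adjusted p = 0.00287). The LFA-1 ligand genes did not pass: Icam1 averaged 84.9 ± 28.3 CPM against 92.1 ± 25.2 CPM (edgeR adjusted p = 0.798) and Icam2 29.6 ± 1.86 CPM against 35.2 ± 3.63 CPM (edgeR adjusted p = 0.0779). Icam2 was lower past the threshold without WT replicate 2 (-0.31, edgeR adjusted p = 0.0466), and with all 9 libraries in DESeq2 (-0.27, DESeq2 adjusted p = 0.0450) and with the hypoxia-response score as a covariate (-0.26, edgeR adjusted p = 0.0463). Icam1 ranged from 44.0 to 109 CPM among Ezh2-deficient and from 57.7 to 120.1 CPM among WT cultures.

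Genes that act with these receptors were counted over 5 lists, beside the 21.9% called over all tested genes (13.1% higher, 8.8% lower). The lists were chosen with earlier results of these data known, so their shares are a description and no test. Of 26 tested genes that link integrin tails to actin and signalling, 2 rose and 4 fell, and of 19 genes of the Rap1 pathway, which switches integrins to high affinity from within the cell, 3 rose and 1 fell. These shares, 23.1% and 21.1%, were near that of all genes. Ptk2b, the focal adhesion kinase relative PYK2, rose to 224 ± 9.86 CPM, against 144 ± 5.73 CPM in WT (log2 fold change 0.64, edgeR adjusted p = 8.01e-05). The actin crosslinker Flna fell to 1581 ± 54.4 CPM, against 2105 ± 164 CPM (-0.41, edgeR adjusted p = 0.00418), and the kinase Src to 6.26 CPM, against 13.5 CPM (-1.10, edgeR adjusted p = 0.00390). In the Rap1 list, the adaptor gene Apbb1ip (RIAM) rose by 0.39, the Rap1 inactivator Rap1gap2 by 0.79 and Rap1b by 0.31 on the log2 scale, and Rap1gap fell to 0.917 CPM, against 3.13 CPM in WT (edgeR adjusted p = 0.00931 to 0.0390 for the 4 genes).

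Of 32 listed ligand and counter-receptor genes, 17 were tested, of which 7 rose and 5 fell (70.6% called, beside 21.9% of all tested genes). With the list chosen when earlier results were known, this excess is no test of such genes. The laminin chain Lamc1 rose to 199 ± 14.4 CPM, against 134 ± 25.0 CPM (log2 fold change 0.56, edgeR adjusted p = 0.00824), and Lrrc32, the GARP protein that presents latent TGF-β to αv integrins, to 865 ± 124 CPM, against 639.9 ± 19.7 CPM (0.43, edgeR adjusted p = 0.00746). Nid1, a basement membrane linker, rose to 5.93 CPM, against 1.23 CPM (2.29, edgeR adjusted p = 0.00161), while Tgfb1 fell to 179 ± 19.8 CPM, against 270.4 ± 43.0 CPM (-0.59, edgeR adjusted p = 0.00407). Of 21 tetraspanin partner and vesicle genes, 4 rose and 1 fell (23.8%, near the 21.9% of all tested genes). The protease Adam10 rose to 294 CPM, against 218 CPM (0.43, edgeR adjusted p = 0.0124), and Igsf8, a direct partner of CD9 and CD81, fell to 25.1 CPM, against 42.5 CPM (-0.76, edgeR adjusted p = 0.0239).

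Of 20 other T cell adhesion genes, 7 rose and 3 fell (50% called, beside 21.9% of all tested genes). This list, too, was chosen with earlier results of these data known. Slamf6, a receptor of the SLAM family, fell to 90.4 CPM, against 149 CPM in WT (log2 fold change -0.72, edgeR adjusted p = 0.00356). Alcam, the CD6 ligand gene, rose by 0.79 and Cd84 by 0.45 on the log2 scale (edgeR adjusted p = 0.00242 and 0.00248). Median log2 fold changes of these lists were -0.02 for the linkage, 0.03 for the Rap1, 0.43 for the ligand, 0.00 for the partner and 0.16 for the adhesion genes, beside 0.00 over all tested genes.

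The tetraspanin superfamily also holds genes with other names. Upk1b, a urothelial tetraspanin, had 234 counts in Ezh2-deficient and 8 in WT libraries, or 1.39 ± 0.301 CPM against 0.0370 ± 0.0348 CPM (log2 fold change 5.13, SE 0.59, edgeR adjusted p = 0.000183). Its relative Upk1a fell to 2.28 ± 0.777 CPM, against 4.48 ± 0.399 CPM (-0.96, edgeR adjusted p = 0.0119), the retinal gene Rom1 did not pass (18.6 against 13.0 CPM, edgeR adjusted p = 0.0795), and Prph2 had no count.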

How the data were processed

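The authors deposited a table of raw counts per Ensembl gene, whole numbers without normalization, for the 9 libraries made with a stranded mRNA kit per the labels' protocols. STAR and build GRCm38 are named in the submitters' processing notes; the sources used here do not name the counting tool, its strand setting or its annotation. Symbols, biotypes, positions and merged exon lengths came from GENCODE M21 (42548 of 43432 identifiers found), and promoter sequences from RefSeq on GRCm38.p6. Of the 51 genes, 20 share exonic bases with another annotated gene, 16 of them with one on the opposite strand.

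From the counts, all genes that passed edgeR's default filter were fitted at once with trimmed-mean scaling and the robust quasi-likelihood F-test (edgeR 4.0.16, R 4.3.3), two-sided, with Benjamini-Hochberg adjustment over 13685 genes and a threshold of 0.05. CPM are counts scaled to library size, given as mean ± SD over 4 Ezh2-deficient and 5 WT libraries; CPM per kb divides by exon length. Standard errors were derived from the fold change and F. Total counts stand in the report. No library pair agreed within sampling noise (lowest chi-square per degree of freedom 23.6). The fit was also run on simulated counts with known fold changes, drawn independently for each library. These lack the shared hypoxia-response and Cd8a differences of the real libraries, so they do not test the single calls.

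Named genes were every member past the threshold, Itgb1, Itgae, Itga5 and Cd9, and every member of at least 50 CPM in a group. Also named were the highest member of a role per exon length and up to 4 genes with the smallest adjusted p of each other list. Other genes named, such as Itgb8, Itga2, Itga2b, Icam2, Tspan33, Itgax and the marker genes, were chosen after their values were seen. A gene of the adhesion list is not reported here by name. The members and lists were chosen with earlier results of these data known. Alternatives were other scalings and filters, DESeq2 1.42.0, limma-voom (limma 3.58.1), covariates, a replicate block and leaving out each library. Leaving out the highest Cd8a library of each group was added after the data were seen. Those libraries also had the highest hypoxia-response score of their group, 6.76 and 6.68.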

Additional observations from a re-analysis of the deposited data

Results flagged for a closer look

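In 4 of the groups of values examined for the named genes, a single WT culture stood apart from the other 4 (the end gap over the range was above Dixon's critical value of 0.71 for 5 samples); chance gives such a gap in about 1 in 20 groups, and 58 were examined. Cd44 was at 119 CPM in WT replicate 3, against 136 to 139 CPM in the other WT cultures. Itga5 was at 9.15 CPM in WT replicate 4, against 15.6 to 18.1 CPM. Itgae was at 36.0 CPM in WT replicate 4, against 11.3 to 18.3 CPM. Itgb3 was at 207 CPM in WT replicate 5, against 88.8 to 98.2 CPM. The calls without these libraries stand beside each gene above for Itgae and Itgb3, and Cd44 and Itga5 kept theirs without any single library.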

How the results depend on the processing

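The number of members called higher, 14, lay between 11 and 16 over the 19 alternatives, 11 to 14 when a library was left out. The number called lower, 3, lay between 2 and 4, except without the highest Cd8a library of each group, an alternative added after the data were seen, where 1 (Tspan31) remained. Over all genes, 3001 calls became 1972 to 3168 when a library was left out, lowest without Ezh2-deficient replicate 3, and 3960 with DESeq2. Cd44, Cd9, Itga5, Itgam, Itgb1, Itgb3bp, Tspan13, Tspan31 and Tspan9 kept direction and call in all 19, and Cd63 in the 18 in which it was tested. Ezh2 was at -0.96 to -0.79 and always called. Itgb3 and Cd81 lost their calls in 12 of 19, among them relative log expression scaling (0.87 and 0.22), no filter (0.86 and 0.22) and sex of the library, read from its expression, as a covariate (0.91 and 0.23). No result that passed turned its direction. Replicate numbers gave no clear pairing of the libraries: same-numbered deviations correlated at 0.23, -0.17, 0.14 and 0.21. With few libraries that also differ in hypoxia-response score, these correlations cannot exclude a pairing. No Ezh2-deficient library correlated best with the WT library of its own number, and of the WT libraries only replicate 1 did so. With the replicate block, 15 members were called higher, 3 lower and 2751 genes in all: Itga2 (1.08, edgeR adjusted p = 0.00894) and Cd53 (0.81, adjusted p = 0.0170) passed and Cd81 (0.22, adjusted p = 0.132) did not. Genes under 1 CPM, such as Cd63 in WT, are limited by depth, and a missed threshold does not show equal levels.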
